A study of Mus musculus with 10 samples.

Results

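The genes described here carry proteins between the endoplasmic reticulum and the Golgi apparatus. The list holds 47 genes: 11 of the COPII coat, 4 that organise the sites where COPII vesicles form, 9 of the COPI coat, 3 of the Arf GTPases and their exchange factor Gbf1, 14 cargo and retrieval receptors, 4 SNAREs and 2 tethers. They were selected on gene name, and all 47 were found among the 78317 genes of the deposited table, each under 1 gene identifier, so that no choice by summed counts was needed. The list was drawn up with earlier CO2 results of these libraries known, so the members were in effect chosen by the same contrast. Their counts and fold changes are therefore a description, and nothing is read from how they compare with the background of all genes.

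The samples were wildtype fibroblasts of mouse embryos, a line made immortal by T antigen (an oncoprotein of a polyomavirus that disables the tumour suppressors p53 and Rb), whose messenger RNA was sequenced. One group had been held at 2% CO2 for 24 h and the other at 10% CO2 for 24 h, both after routine culture in complete medium at 10% CO2 and 37 °C. Each level had 5 libraries, replicates 1 to 3 from batch 1 and replicates 4 and 5 from batch 2. What set the batches apart is not stated in the labels. The immortalized line, which both groups share, is the limit of the model, and nothing states that the replicates were separate cultures. The p-values therefore rest on how far these particular libraries scatter, and that scatter may be technical.

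COPII and COPI are protein coats that bend membrane into transport vesicles. COPII buds from the endoplasmic reticulum and carries newly made proteins forward, and COPI returns receptors and escaped resident proteins from the Golgi. Fibroblasts depend on this route to secrete collagen and other matrix proteins, and in mammals the transcription factors XBP1, ATF6 and members of the CREB3 family are known to drive many of its genes.

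The 10 libraries held between 178676 and 12354538 estimated counts, and the 3 shallowest were 2% CO2 replicate 2 with 178676, 2% CO2 replicate 3 with 506405 and 10% CO2 replicate 5 with 892318. In 2% CO2 replicate 2 the members had between 1 and 80 counts, with a median of 12, and 3 counts correspond to 15.7 CPM, whereas in the deepest library the members had between 182 and 6024 counts. CPM here are counts scaled to a common library total after TMM scaling, which corrects that total for differences in composition. The summed level of 8 fibroblast markers ran from 3859 to 7337 CPM at 2% CO2 and from 7525 to 12386 CPM at 10% CO2, with the collagens Col1a1, Col1a2 and Col3a1 among the 5 called lower and Pdgfra and Dcn too low to test. Of the other lists, 4 epithelial markers summed to 0 to 5.22 CPM at 2% CO2 and 0.377 to 1.92 CPM at 10% CO2, and 4 haematopoietic markers to 0 to 3.77 CPM at 2% CO2 and 2.20 to 4.18 CPM at 10% CO2. The 4 endothelial markers summed to 7.53 to 15.2 CPM at 2% CO2 and 4.78 to 8.77 CPM at 10% CO2, and the 4 neural markers to 26.2 to 52.2 CPM at 2% CO2 and 26.5 to 58.0 CPM at 10% CO2. Kdr carried the endothelial sum and was called higher at 2% CO2 (edgeR adjusted p = 0.0134), Tubb3 carried the neural one, and Adgre1 and Sox10 were at 0 in every library. The part of the lower fibroblast marker level in the results below was not tested.

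Promoter sequences were available for 43 of the 47 members in the RefSeq promoter set of assembly GRCm38.p6, which covers 250 bases before to 50 bases after each annotated start and gave 50 promoters. Arcn1, Kdelr2, Lman1 and Tmed2 had none in that set. Because the counts were made on GRCm39, the coordinates below belong to the promoter set and not to the counts. The promoters were searched on both strands for 4 motifs known from regulators of secretory genes. These were UPRE (TGACGTGG, known as a binding site of XBP1 and of ATF6), CRE (TGACGTCA, bound by CREB-family factors), ERSE (CCAAT and CCACG with 9 bases between them) and ERSE-II (ATTGG and CCACG with 1 base between them). UPRE and CRE share their first 6 letters, and CCACG also lies within the reverse strand of UPRE.

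UPRE letters were present in the promoters of 8 of the 43 members (18.6%), and counted by promoter, as for the sets that follow, in 9 of 50 (18%). They were present in 222 of all 32851 promoters (0.676%), and in 102 of 11438 promoters of the genes tested here (0.892%), whose median GC content was 61.3%, against 58.6% for the members' promoters. Among genes called lower at 2% CO2 (edgeR adjusted p under 0.05 over all genes tested), 14 of 856 promoters held them (1.64%). These 14 include the promoters of the 5 called members named next, with both starts of Arf1. That share is therefore not independent of the list, and nothing is read from it about lower genes in general. The carriers were 5 of the 14 members that were lower at 2% CO2 and have a promoter in the set (Sec24d, Sec23a, Copb2, Arf1 and Kdelr3). The other 3 carriers were not called (Copb1, Gbf1 and Stx5a). Of the 43 members with a promoter 14 were called lower, where 6.73% of all genes tested were. The members were chosen with this contrast known, so nothing is read from how the calls divide among the carriers. CRE letters occurred in Cope and Gosr2 (588 of all promoters, 1.79%), and neither ERSE (39 promoters, 0.119%) nor ERSE-II (12 promoters, 0.0365%) occurred in a member. These letters are a description of the sequence, not evidence of binding, and their part in the expression differences was not tested.

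The 8 carriers are shown because they share these 8 letters. Each line gives 40 bases of the gene's strand, 5′ to 3′, with the UPRE letters in capitals. They read CCACGTCA where the match lies on the other strand.
Sec24d, chr3:123267454-123267493, plus strand: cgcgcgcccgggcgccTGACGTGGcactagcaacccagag
Sec23a, chr12:59011988-59012027, minus strand: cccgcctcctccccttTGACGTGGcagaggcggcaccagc
Arf1, chr11:59228223-59228262, minus strand: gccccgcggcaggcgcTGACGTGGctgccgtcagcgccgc
Copb2, chr9:98563708-98563747, plus strand: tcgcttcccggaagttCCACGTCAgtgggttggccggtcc
Kdelr3, chr15:79516362-79516401, plus strand: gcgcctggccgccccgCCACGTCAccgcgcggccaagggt
Copb1, chr7:114254685-114254724, minus strand: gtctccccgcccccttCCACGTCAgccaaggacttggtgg
Gbf1, chr19:46152530-46152569, plus strand: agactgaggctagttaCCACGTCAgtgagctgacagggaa
Stx5a, chr19:8741417-8741456, plus strand: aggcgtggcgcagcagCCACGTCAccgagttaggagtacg

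Counted from the annotated start as position 1, with no position 0, the match lay at positions -26 to -19 in Sec24d, 7 to 14 in Sec23a, -7 to 1 in Copb2 and -30 to -23 in Kdelr3. It lay at -84 to -77 from the first annotated start of Arf1, and the same site stands at 22 to 29 from its second start. In the uncalled carriers it lay at -28 to -21 in Copb1 and -12 to -5 in Gbf1, and Stx5a held 2 matches, at 10 to 17 and at 40 to 47.

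**Figure D1:**
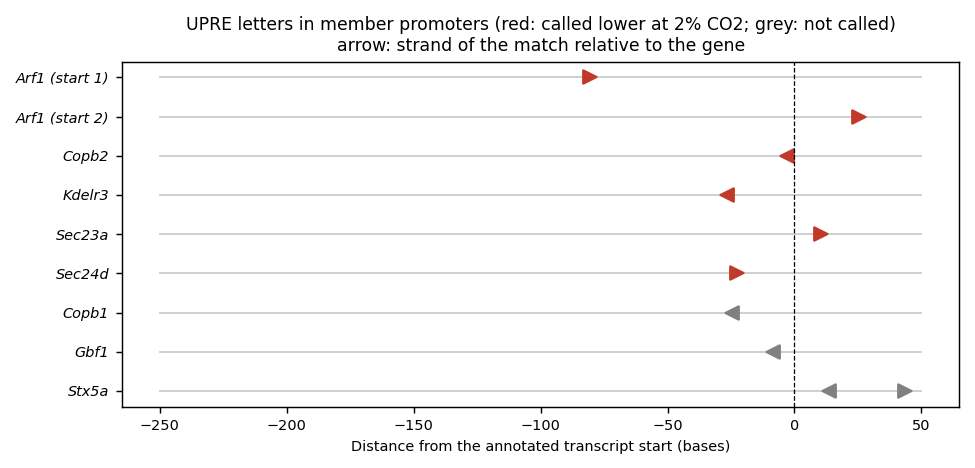
Position of UPRE letters (horizontal axis, bases from the annotated transcript start) in the promoters of 8 member genes, 1 row a promoter, with Arf1 shown for both of its starts; red marks genes called lower at 2% CO2 and grey marks genes not called, and arrows give the strand of the match. The matches lie between -84 and 47, and apart from the first start of Arf1 none lies before -30.

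Whole promoters of Sec24d and Copz2 are given as the members with the largest falls in the COPII and COPI coats, the first with UPRE letters (capitals) and the second with none of the 4 motifs.
Sec24d, chr3:123267246-123267545, plus strand: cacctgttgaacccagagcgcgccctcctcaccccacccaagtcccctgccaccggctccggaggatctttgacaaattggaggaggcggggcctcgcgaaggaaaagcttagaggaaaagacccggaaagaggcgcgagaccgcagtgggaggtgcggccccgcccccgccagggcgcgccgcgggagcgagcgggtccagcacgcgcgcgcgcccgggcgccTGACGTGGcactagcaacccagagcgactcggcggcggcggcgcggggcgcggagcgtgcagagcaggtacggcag
Copz2, chr11:96849626-96849925, plus strand: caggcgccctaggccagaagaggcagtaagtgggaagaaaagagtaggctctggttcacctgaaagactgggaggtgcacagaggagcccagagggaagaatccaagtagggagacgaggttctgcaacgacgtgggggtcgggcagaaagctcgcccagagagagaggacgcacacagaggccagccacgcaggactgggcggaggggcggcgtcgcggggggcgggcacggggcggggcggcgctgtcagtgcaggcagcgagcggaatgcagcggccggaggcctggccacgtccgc

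At 2% CO2, 15 of the 47 members were lower than at 10% CO2, none was higher and 32 were not called. A gene is called here when its adjusted p is under 0.05 in edgeR's quasi-likelihood test over all 13198 genes tested, with batch in the model. In that test 1588 genes (12%) were called, 888 lower (6.73%) and 700 higher (5.3%) at 2% CO2. All 47 members passed the filter on low counts. The fold changes were negative for 42 members and positive for 5, with a median log2 fold change of -0.26 and a range of -1.55 to 0.30, beside a median of 0.00 over all genes tested. At an unadjusted p under 0.05, 27 members were lower and 1, Sec23b, was higher, and DESeq2 and limma-voom likewise called none higher. DESeq2 called 18 members lower, the same 15 and Mia3, Lman1 and Tmed10, and limma-voom called 15, with Copg1 (adjusted p = 0.0494) in place of Sec13. Over all genes tested, DESeq2 called 937 lower and 751 higher, and limma-voom called 838 lower and 717 higher. The share of all genes at an unadjusted p under 0.05 was not counted. In bulk RNA, fewer cells of a kind and less RNA per cell cannot be told apart.

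Most falls were small, and the fold change reached 2 only for Sec24d and Sec23a. The levels at 2% and 10% CO2 did not overlap in 11 members, all lower at 2% CO2, beside 729 of all genes tested (5.52%). Of these 11, 10 were called and the other was Tmed10. With CPM scaled by library total, an alternative chosen after seeing the data, 7 members did not overlap. The share of all genes without overlap at that scaling was not counted, so nothing is read from this 7. Taken within batches, 19 members had every 2% CO2 library below every 10% CO2 library of its own batch, and none had the reverse, beside 1555 of all genes (11.8%) separated in 1 direction in both batches. Scaling to the library total, which moves the median of all genes to 0.07, left 9 members called and none higher, and it changed the split over all genes to 1031 higher and 614 lower. It ended the calls of Sec13, Tfg, Copb2, Arf1, Kdelr2 and Uso1. Without the 3 shallowest libraries 10 members were called, beside 1237 genes in all, where the main fit called 1588. The calls of Sec13, Copb2, Arf1, Kdelr2 and Uso1 ended there. In that fit the log2 fold change of Sec13 was -0.16, while those of Copb2 (-0.33), Arf1 (-0.33), Kdelr2 (-0.46) and Uso1 (-0.40) moved by less than 1.5 times.

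**Figure D2:**
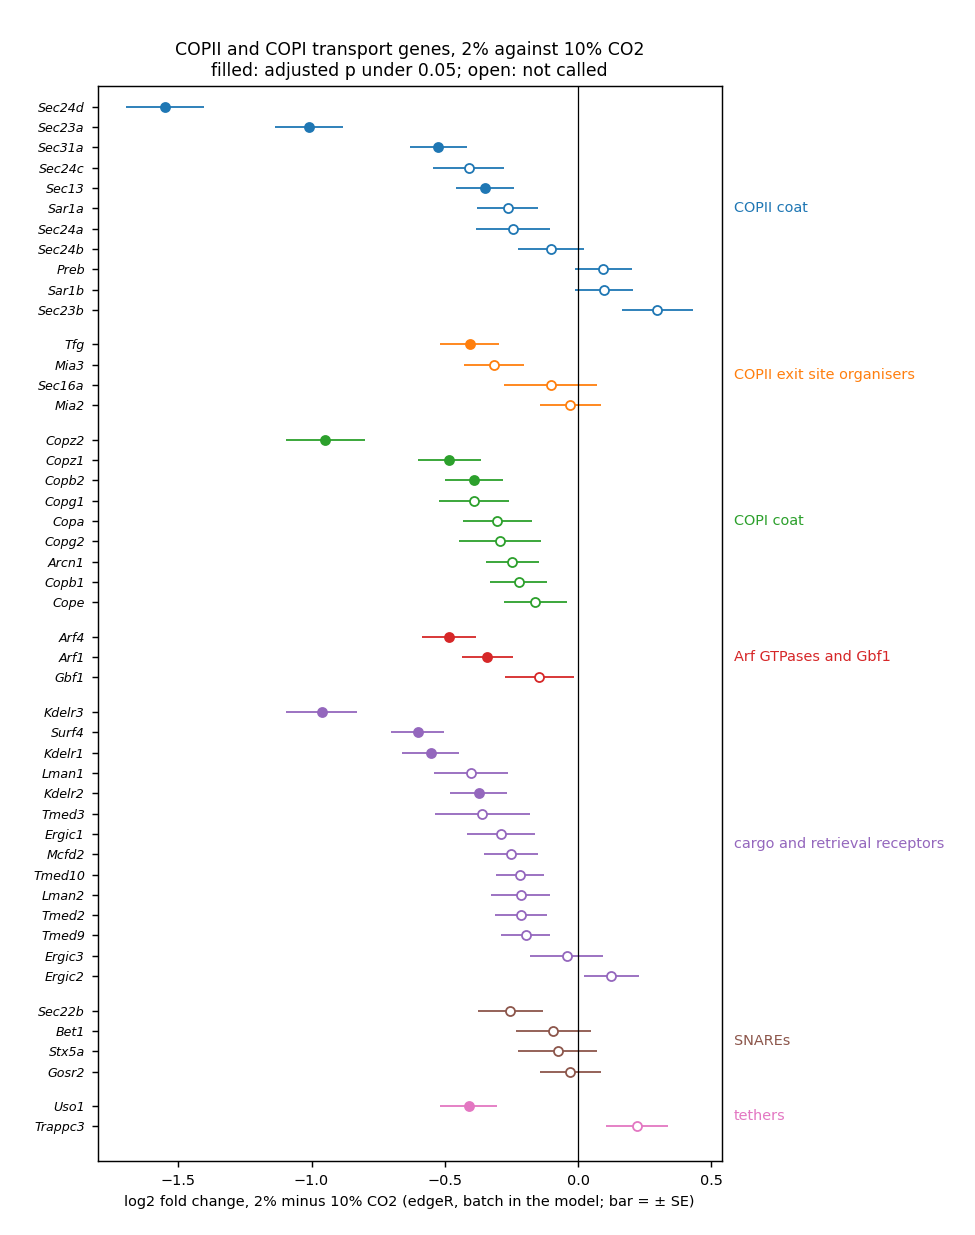
Log2 fold change (2% minus 10% CO2, horizontal axis) of each of the 47 genes with its standard error, from edgeR with batch in the model, grouped by role; filled points are called at adjusted p under 0.05. All 15 filled points lie left of 0, from Sec24d at -1.55 to Arf1 at -0.34, and 5 open points lie right of 0.

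The COPII coat held the greatest falls, and they were uneven between its subunits. Sec23 and Sec24 form the inner layer, in which Sec24 binds cargo and Sec23 activates the GTPase Sar1, and Sec13 and Sec31 form the outer cage. Of 11 genes, 4 were lower at 2% CO2, 7 were not called, and the median log2 fold change was -0.26. Sec24d (ENSMUSG00000039234), a cargo-binding subunit, stood in replicates 1 to 5 at 27.1, 47.0, 22.6, 17.1 and 22.3 CPM at 2% CO2, against 73.4, 94.8, 88.0, 49.8 and 69.3 CPM at 10% CO2. Batch 2 lay below batch 1 at both levels, and every 2% CO2 library lay below every 10% CO2 library. It averaged 27.2 ± 11.6 CPM over the 5 libraries at 2% CO2 and 75.1 ± 17.6 CPM over the 5 at 10% CO2 (SD). That was a log2 fold change, given here and below with its SE, of -1.55 ± 0.15 (adjusted p = 4.95e-06, edgeR).

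Sec23a (ENSMUSG00000020986), the Sar1-activating subunit, stood at 38.2, 36.5, 49.0, 38.2 and 45.2 CPM at 2% CO2, against 77.3, 98.2, 94.2, 69.5 and 93.2 CPM at 10% CO2. The groups did not overlap, and it averaged 41.4 ± 5.37 CPM over the 5 libraries at 2% CO2 and 86.5 ± 12.4 CPM over the 5 at 10% CO2 (SD). Its log2 fold change was -1.01 ± 0.13 (adjusted p = 7.36e-05). Its close relative Sec23b, which was not called, stood at 39.8, 31.3, 65.9, 50.9 and 52.2 CPM at 2% CO2, against 37.1, 41.1, 44.5, 39.8 and 33.4 CPM at 10% CO2, with overlapping groups and a log2 fold change of 0.30 ± 0.13 (adjusted p = 0.164).

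Sec31a, the rod of the outer cage, was measured at 64.9, 78.3, 86.6, 80.3 and 94.1 CPM at 2% CO2, against 107, 121, 108, 119 and 115 CPM at 10% CO2. These groups did not overlap, and the log2 fold change was -0.52 ± 0.11 (adjusted p = 0.00392). Sec13, its partner and also a nuclear pore component, was measured at 297, 219, 213, 301 and 324 CPM at 2% CO2, against 307, 347, 341, 348 and 418 CPM at 10% CO2. Across batches 2% CO2 replicate 5 lay above 10% CO2 replicate 1, and within each batch the groups were separate. Its log2 fold change was -0.35 ± 0.11 (adjusted p = 0.0434), and the call was lost in each fit that left out 1 library except 2% CO2 replicate 1, with an adjusted p of up to 0.112. Without the 3 shallowest libraries Sec13 was at -0.16 on the log2 scale (adjusted p = 0.386).

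Among the uncalled coat genes, Sec24c came nearest with a log2 fold change of -0.41 ± 0.13 (adjusted p = 0.0538) and was called without 10% CO2 replicate 1 (0.0336) or replicate 5 (0.0314). Sar1a, a GTPase that starts coat assembly, was at -0.26 ± 0.11, Sec24a at -0.24 ± 0.14 and Sec24b at -0.10 ± 0.12 on the log2 scale. Sar1b was at 0.10 ± 0.11, and Preb, the exchange factor that loads Sar1 with GTP, was at 0.09 ± 0.11.

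Of the 4 organisers of exit sites, Tfg was lower at 2% CO2 and 3 were not called. Tfg, a protein that forms a meshwork around budding COPII vesicles, stood at 81.2, 88.8, 105, 58.1 and 66.5 CPM at 2% CO2, against 117, 112, 107, 79.7 and 104 CPM at 10% CO2. The levels overlapped across batches and were separate within each. Its fold change was -0.41 ± 0.11 on the log2 scale (adjusted p = 0.0220), and its call ended without 2% CO2 replicate 1 (0.0590) or 2% CO2 replicate 4 (0.0892). Mia3, also named TANGO1, which fits bulky cargo such as procollagen into COPII carriers, had a log2 fold change of -0.32 ± 0.11 (adjusted p = 0.0754, 0.0462 in DESeq2 and 0.0245 without 10% CO2 replicate 5). Its relative Mia2 was at -0.03 ± 0.11 and the scaffold Sec16a at -0.10 ± 0.17, both within their errors of 0.

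In the COPI coat all 9 log2 fold changes were negative, from -0.95 to -0.16 with a median of -0.30, and 3 were called. The coat, coatomer, is a complex of alpha, beta, beta prime, gamma, delta, epsilon and zeta subunits, of which gamma and zeta each have a pair of genes. Copz2, a zeta subunit, stood at 19.1, 20.9, 15.1, 14.3 and 17.4 CPM at 2% CO2, against 30.7, 29.1, 29.5, 30.7 and 46.6 CPM at 10% CO2. No library of one level reached the range of the other, although 10% CO2 replicate 5 was far above its group. It averaged 17.4 ± 2.74 CPM over the 5 libraries at 2% CO2 and 33.3 ± 7.46 CPM over the 5 at 10% CO2 (SD), and its log2 fold change was -0.95 ± 0.15 (adjusted p = 0.000475).

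Copz1, the other zeta subunit, was measured at 53.3, 20.9, 49.0, 51.8 and 51.6 CPM at 2% CO2, against 71.4, 66.9, 76.6, 69.7 and 66.9 CPM at 10% CO2. The 2% CO2 level of replicate 2 rests on 4 counts, and the groups did not overlap with or without it. A log2 fold change of -0.48 ± 0.12 resulted (adjusted p = 0.0119), with an adjusted p of 0.0532 when 10% CO2 replicate 4 was left out. Copb2, the beta prime subunit, which recognises retrieval signals, was measured at 92.0, 88.8, 104, 156 and 177 CPM at 2% CO2, against 119.7, 145, 136, 182 and 231 CPM at 10% CO2. Batch 2 lay above batch 1 at both levels, so the groups overlapped across batches and were separate within each. On the log2 scale the fold change was -0.39 ± 0.11 (adjusted p = 0.0259), and its call ended without 10% CO2 replicate 3 (0.0582), 2% CO2 replicate 1 (0.0800) or 2% CO2 replicate 4 (0.0763).

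The uncalled subunits were Copg1 at a log2 fold change of -0.39 ± 0.13 (adjusted p = 0.0585), Copa at -0.30 ± 0.13, Copg2 at -0.29 ± 0.16, Arcn1 (delta) at -0.25 ± 0.10, Copb1 at -0.22 ± 0.11 and Cope at -0.16 ± 0.12. With the replicate number as a block in place of batch, Copg1 was called lower at an adjusted p of 0.0316, and without 10% CO2 replicate 5 at 0.0290.

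The Arf GTPases recruit coatomer to membranes, and both of those listed were lower at 2% CO2. Arf4 stood at 332, 418, 450.2, 427 and 436 CPM at 2% CO2, against 534, 591, 589, 573 and 578 CPM at 10% CO2. Its groups did not overlap, and the lowest value, 2% CO2 replicate 1, lay well below the rest of its group. The log2 fold change was -0.48 ± 0.10 (adjusted p = 0.00472).

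Arf1 was measured at 384, 363, 412, 409 and 434 CPM at 2% CO2, against 459.8, 536, 556, 491 and 509.8 CPM at 10% CO2. The groups were narrowly separate, with the highest 2% CO2 library below the lowest 10% CO2 library. The log2 fold change was -0.34 ± 0.10 (adjusted p = 0.0274), and 5 of the fits that left out 1 library ended the call. Those were the fits without 10% CO2 replicate 3 (0.0833) or 4 (0.0625), and without 2% CO2 replicate 2 (0.0529), 3 (0.0502) or 4 (0.0664). Gbf1, the exchange factor that activates Arf1 at the early Golgi, was at -0.14 ± 0.13 (adjusted p = 0.534).

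Among 14 cargo and retrieval receptors, 4 were lower at 2% CO2 and 10 were not called, with a median log2 fold change of -0.27. The called ones were Surf4, a broad-range export receptor, and all 3 KDEL receptors, which return resident chaperones carrying the KDEL signal from the Golgi. Kdelr3 stood at 86.8, 88.8, 71.6, 33.0 and 28.6 CPM at 2% CO2, against 132, 149.7, 159.8, 55.8 and 90.8 CPM at 10% CO2. Levels in batch 2 were lower than in batch 1 at both CO2 levels, and the groups were separate within each batch. On the log2 scale Kdelr3 changed by -0.96 ± 0.13 (adjusted p = 0.000142), beside a batch 2 minus batch 1 difference of -1.26 on the log2 scale.

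Surf4 was at 160.0, 162, 196, 256 and 242 CPM at 2% CO2, against 275, 282, 293, 342 and 344 CPM at 10% CO2, with batch 2 above batch 1 at both levels. The groups did not overlap, and it averaged 203 ± 44.6 CPM over the 5 libraries at 2% CO2 and 307 ± 33.3 CPM over the 5 at 10% CO2 (SD), and its log2 fold change was -0.60 ± 0.10 (adjusted p = 0.000653). Kdelr1 stood at 109.9, 62.7, 92.3, 99.5 and 89.6 CPM at 2% CO2, against 149, 136, 149, 136 and 137 CPM at 10% CO2, again with no overlap. Its log2 fold change was -0.55 ± 0.11 (adjusted p = 0.00255).

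Kdelr2 was measured at 248, 287, 286, 333 and 309 CPM at 2% CO2, against 345, 426, 398, 384 and 336 CPM at 10% CO2. The highest 2% CO2 library came just under the lowest 10% CO2 library. The log2 fold change was -0.37 ± 0.11 (adjusted p = 0.0302). The call ended without 10% CO2 replicate 2 (0.0560), 3 (0.0765) or 4 (0.0914), and without 2% CO2 replicate 1 (0.0829), 2 (0.0509), 3 (0.0731) or 5 (0.0502). In batch 1 alone its log2 fold change was -0.52 (adjusted p = 0.0333), and in batch 2 alone it was -0.16 (adjusted p = 0.569).

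Lman1, also named ERGIC-53, a lectin that carries glycoproteins forward together with Mcfd2, had a log2 fold change of -0.40 ± 0.14 (adjusted p = 0.0656), and Mcfd2 had one of -0.25 ± 0.10 (adjusted p = 0.116). With the replicate block Lman1 was called lower (adjusted p = 0.0416), as was Tmed3 (0.0105). Leaving out 10% CO2 replicate 5 also gave a call of Lman1 (0.0246), as did DESeq2 (0.0392), and leaving out 10% CO2 replicate 2 (0.0368) or 2% CO2 replicate 1 (0.0370) one of Tmed3. Tmed proteins are p24 family members that sort cargo into both coats, and their log2 fold changes were -0.36 ± 0.18 for Tmed3, -0.22 ± 0.09 for Tmed10, -0.21 ± 0.10 for Tmed2 and -0.20 ± 0.09 for Tmed9. Tmed10, singled out after its values were seen, stood at 128, 128, 121, 122 and 125 CPM at 2% CO2, against 155, 142, 142, 147 and 137 CPM at 10% CO2, with no overlap between the groups and an adjusted p of 0.130 in edgeR's test and 0.0424 in DESeq2's. The remaining receptors were Ergic1 at -0.29 ± 0.13, Lman2 at -0.22 ± 0.11, Ergic3 at -0.04 ± 0.14 and Ergic2 at 0.12 ± 0.10 on the log2 scale.

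None of the 4 SNAREs, the proteins that fuse vesicles with the target membrane, was called by edgeR's test, and none of them had an unadjusted p under 0.05 in it or was called by DESeq2 or limma-voom. Their log2 fold changes were -0.26 ± 0.12 for Sec22b, -0.09 ± 0.14 for Bet1, -0.08 ± 0.15 for Stx5a and -0.03 ± 0.11 for Gosr2. Stx5a had 1 count in 2% CO2 replicate 2. Of the 2 tethers, Uso1, also named p115, which links incoming vesicles to the Golgi, stood at 52.5, 47.0, 50.9, 71.2 and 64.1 CPM at 2% CO2, against 64.9, 80.6, 75.8, 85.0 and 81.2 CPM at 10% CO2. The groups overlapped only across batches. Uso1 had a log2 fold change of -0.41 ± 0.11 (adjusted p = 0.0178), and its call ended without 10% CO2 replicate 4 (0.0618) or 2% CO2 replicate 1 (0.0554). Trappc3, a core subunit of the TRAPP tethering complex, was at 0.22 ± 0.12 (adjusted p = 0.238).

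**Figure D3:**
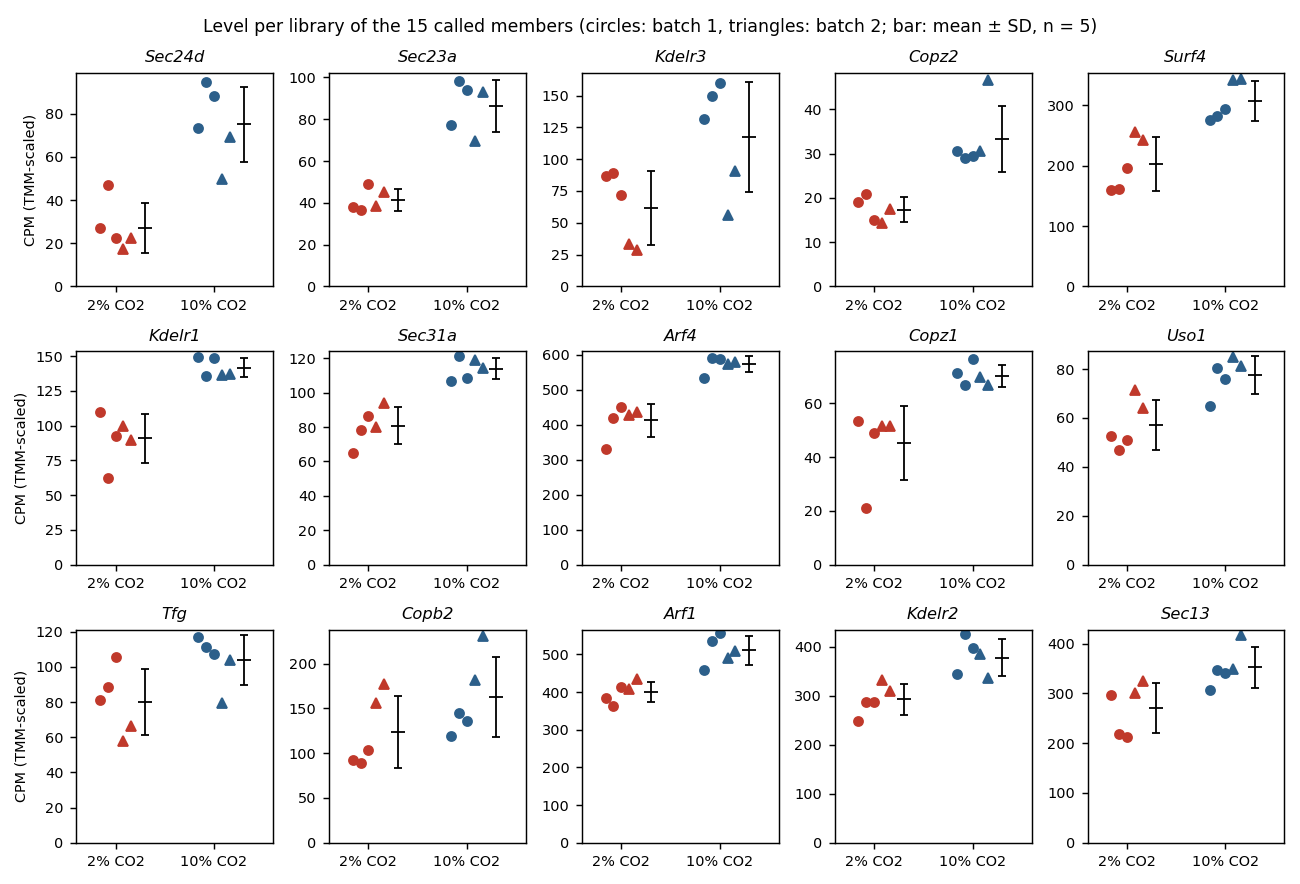
Level in every library (CPM after TMM scaling, vertical axis from 0) of the 15 members called lower at 2% CO2, with 2% CO2 left of 10% CO2 in each panel, circles for batch 1, triangles for batch 2 and bars for mean ± SD (n = 5). Sec24d, Sec23a, Copz2, Surf4, Kdelr1, Sec31a, Arf4, Copz1, Arf1 and Kdelr2 show no overlap. In Kdelr3, Copb2, Sec24d, Surf4, Tfg, Uso1 and Sec13 the batches are apart at both CO2 levels.

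The same comparison was made within each batch. In batch 1 alone, with 3 libraries at each level, 10 members were called, all lower, beside 763 of 12275 genes (6.22%), and the members' median log2 fold change was -0.31. In batch 2 alone, with 2 libraries at each level, 4 were called, all lower, beside 267 of 14627 genes (1.83%), with a median of -0.20. Sec24d, Sec23a and Kdelr3 were called in both. Sec24d was at -1.61 (adjusted p = 0.000225, edgeR) in batch 1 and -1.48 (0.0142) in batch 2, Sec23a at -1.14 (0.00170) and -0.87 (0.0349), and Kdelr3 at -0.82 (0.00577) and -1.10 (0.0357). The fourth member called in batch 2 was Copz2, at -1.12 (0.0349), against -0.68 (0.0542) in batch 1.

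The sign was the same in both batches for 38 members, 34 lower and 4 higher at 2% CO2. The difference between the batches in their CO2 effect, tested as an interaction, passed an adjusted p of 0.05 for no member. By that edgeR test 3 had an unadjusted p under 0.05: Sec22b (0.0168), Mia3 (0.0220) and Lman1 (0.0479). In Sec22b the log2 fold change was -0.52 in batch 1 and 0.03 in batch 2, in Mia3 -0.57 and -0.08, and in Lman1 -0.65 and -0.12. These were the 3 shown because of that p. The shares of all genes with the same sign or with such an interaction p were not counted, so neither count is read as particular to the members. In levels irrespective of CO2, 13 members were higher and 7 lower in batch 2 than in batch 1, beside 4749 of all genes called for batch (36%).

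**Figure D4:**
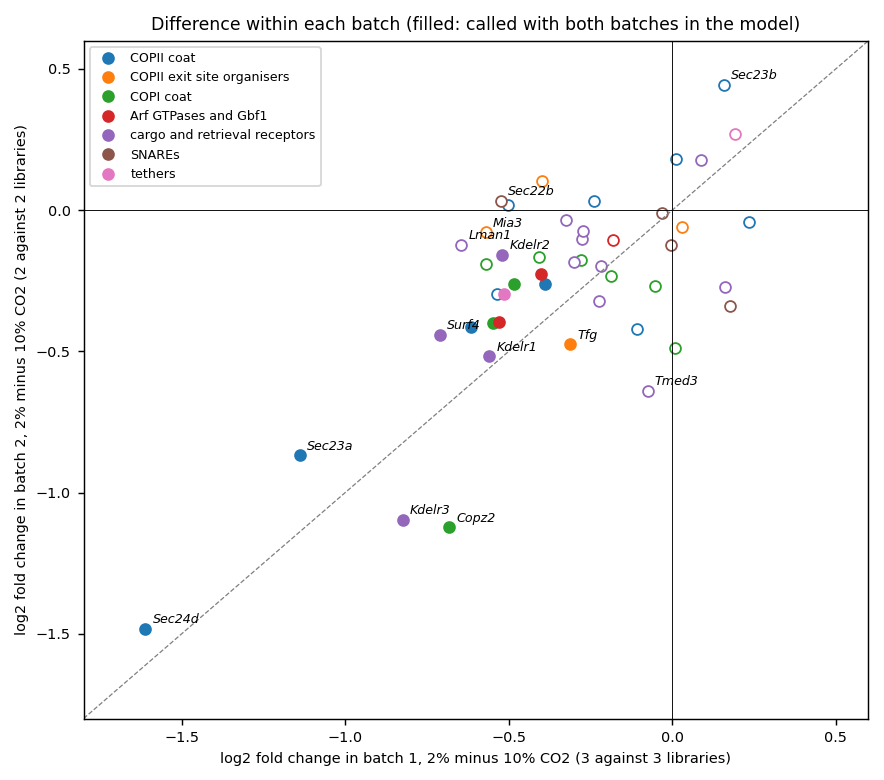
Log2 fold change (2% minus 10% CO2) in batch 1 (horizontal axis, 3 against 3 libraries) and in batch 2 (vertical axis, 2 against 2 libraries) for each of the 47 genes, coloured by role, filled where called with both batches in the model; the dashed line marks equal values. Sec24d, Sec23a, Kdelr3 and Copz2 lie farthest towards the lower left, and Sec22b, Mia3 and Lman1 lie well above the line.

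Pairs of related or partner genes were also compared within each library, because such a ratio does not depend on how the libraries are scaled. Across 14 pairs, the log2 ratio of counts (0.5 added to each) was tested by an exact two-sided permutation of CO2 labels within batch, with 120 arrangements and a smallest possible p of 0.0167. That p was reached by 2 pairs, and after adjustment over the 14 pairs none passed 0.05. A pair at the smallest p can pass this adjustment only if several other pairs also stand at or near that p. Sec23a over Sec23b stood in replicates 1 to 5 at -0.06, 0.21, -0.42, -0.41 and -0.21 at 2% CO2, against 1.05, 1.26, 1.08, 0.80 and 1.46 at 10% CO2. The ranges were far apart, so Sec23a counts exceeded those of Sec23b in every 10% CO2 library and in 1 of the 2% CO2 libraries. That 1 was 2% CO2 replicate 2, with only 7 counts of Sec23a and 6 of Sec23b. The difference in log2 ratio between the CO2 levels was -1.31 (exact permutation p = 0.0167, adjusted p = 0.117), with -1.22 in batch 1 and -1.44 in batch 2.

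Kdelr3 over Kdelr2 stood at -1.52, -1.67, -1.99, -3.33 and -3.43 at 2% CO2, against -1.39, -1.51, -1.31, -2.78 and -1.88 at 10% CO2. The 2% CO2 libraries were lower within each batch, and the ranges overlapped across batches. The difference was -0.61 (exact permutation p = 0.0167, adjusted p = 0.117), with -0.32 in batch 1 and -1.05 in batch 2. It was -0.40 without 10% CO2 replicate 5 and -0.34 without the 3 shallowest libraries. Leaving out 2% CO2 replicate 2, the shallowest library, 6 pairs passed at an adjusted p of 0.0389 (exact permutation, 60 arrangements). Those were Sar1b over Sar1a (difference 0.41), Sec23a over Sec23b (-1.40), Sec24d over Sec24c (-1.36), Sec24d over Sec24a (-1.48), Copz2 over Copz1 (-0.55) and Kdelr3 over Kdelr2 (-0.67). Each of these 6 stood at the smallest possible p of that permutation, 0.0167. Their passing depended on how many pairs tied there, and some share a gene. With all libraries the difference of Copz2 over Copz1 was -0.21 (exact permutation p = 0.617, the highest of the 14 pairs), and without 10% CO2 replicate 5 it was -0.00461. Ratios of counts are not ratios of levels, since transcript lengths differ.

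**Figure D5:**
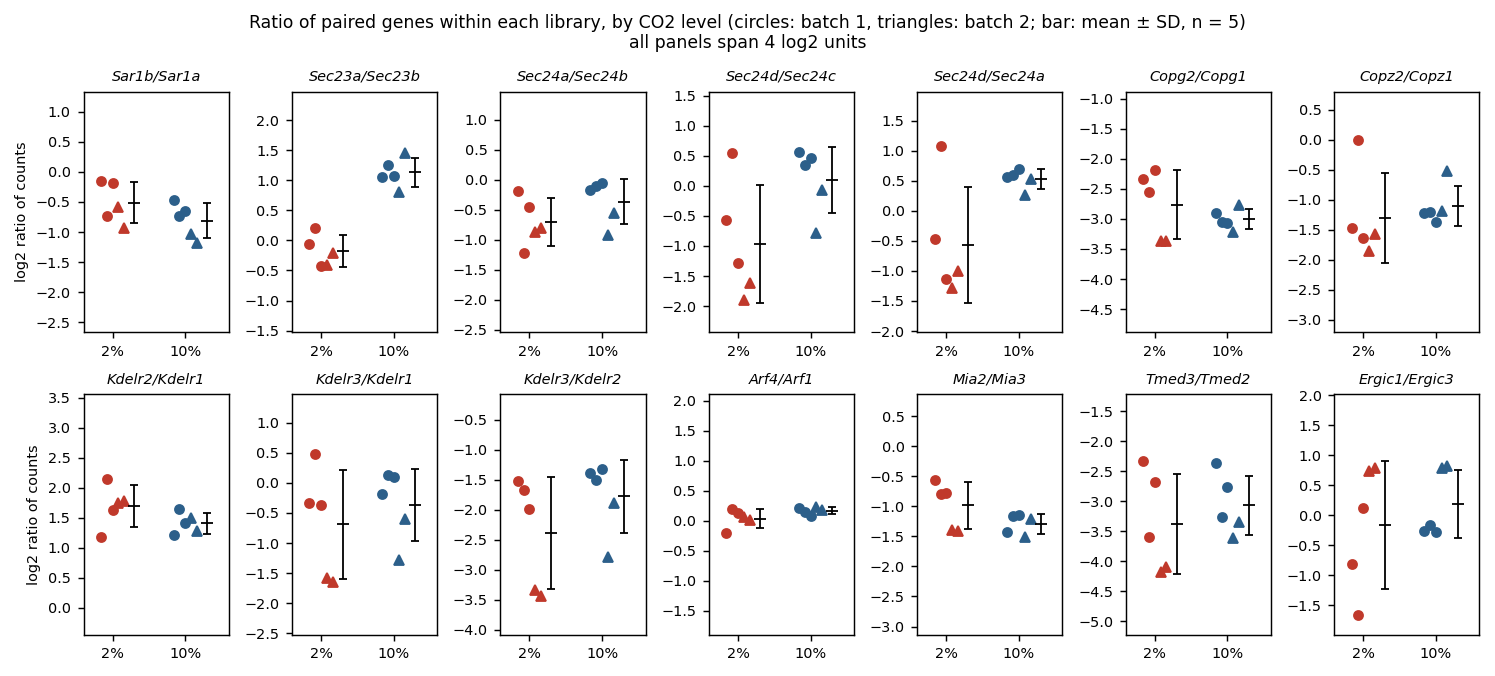
Log2 ratio of counts of 14 gene pairs in each library (vertical axis, every panel spanning 4 log2 units), 2% CO2 left of 10% CO2, circles for batch 1, triangles for batch 2 and bars for mean ± SD (n = 5). Sec23a/Sec23b is the pair with the widest gap between the CO2 levels, and 2% CO2 replicate 2 lies apart in Sec24d/Sec24c, Sec24d/Sec24a and Copz2/Copz1.

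Other genes of the same transport route were taken from a list of 83, of which 79 were tested, 11 were lower, 5 were higher and 63 were not called, with a median log2 fold change of -0.03. None of 14 other cargo receptors and adaptors was called by edgeR's test, in which 4 had an unadjusted p under 0.05, and DESeq2 and limma-voom called 1 each. Among 6 COPII accessory genes Sec16b, a low-count relative of Sec16a with 148 counts in all libraries together, was lower, at a log2 fold change of -1.41 ± 0.32 (adjusted p = 0.00799). Of 9 COPI and Arf accessory genes 3 were lower and 1 higher, with Arfgap3, which switches Arf off, at -0.60 ± 0.15 (adjusted p = 0.0160), Arfgap1 at -0.35 ± 0.11 (adjusted p = 0.0444) and Arfgef2, an exchange factor of the late Golgi, at 0.49 ± 0.14 (adjusted p = 0.0263).

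Of 12 other SNAREs and their factors, Ykt6 was lower, with a log2 fold change of -0.40 ± 0.10 (adjusted p = 0.0155), and Gosr1 and Napa were higher, with log2 fold changes of 0.59 ± 0.15 (adjusted p = 0.0145) and 0.34 ± 0.11 (adjusted p = 0.0474). Of 32 other tethers and Rab GTPases 3 were lower and 1 higher, with Rab2a, a GTPase of the early Golgi, at -0.41 ± 0.09 (adjusted p = 0.00642), the Golgi stacking protein Gorasp2 at -0.47 ± 0.12 (adjusted p = 0.0134) and the TRAPP subunit Trappc2l at 0.51 ± 0.13 (adjusted p = 0.0197). Of 6 transcription factors known to drive secretory genes 3 were lower and 1 higher. Xbp1 stood at 31.4, 41.8, 33.9, 34.9 and 38.7 CPM at 2% CO2, against 92.4, 105, 114, 92.9 and 116 CPM at 10% CO2, with no overlap and a log2 fold change of -1.54 ± 0.12 (adjusted p = 4.96e-07, edgeR). Creb3l1 was at -1.22 ± 0.29 (adjusted p = 0.0240) and Creb3 at 0.55 ± 0.15 (adjusted p = 0.0201). Counts per gene do not separate the transcript forms of a gene such as Xbp1, and the activity of these factors was not measured. Rab2a, Gorasp2 and Xbp1 stayed called whichever library was left out, and each of the other 10 genes named in this and the preceding paragraph lost the call in at least 1 such fit.

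Fractional counts, which a division of reads among genes can give, occurred in 7 of the called members, while 22 members had whole counts in every library. No member was fractional in all libraries. For near-identical copies such counts are uncertain.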

How the data were processed

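The deposited table holds estimated counts per gene and library, not normalized and partly fractional. A second deposited table holds CPM, equal to counts per library total within 4.8e-05, and was used only for that check. The submitters' processing notes name the build GRCm39 and the tools MultiQC 1.32, featureCounts in Subread 2.1.1, STAR 2.7.11 and SAMtools 1.22.1. Settings, order and annotation are not given in the sources here. Depth ran from 178676 to 12354538 counts a library, and a limit of 3 counts covers counting error only.

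Rounded counts went into edgeR 4.0.16 (R 4.3.3), with genes kept by filterByExpr for the CO2 levels (minimum count 10 and minimum total 15), TMM and batch plus CO2 as the model (robust quasi-likelihood F test, Benjamini-Hochberg over all genes tested, adjusted p under 0.05, two-sided), after the steps had been tested on simulated data. The 92 spike-in entries were left out. Printed CPM are counts over TMM-scaled library totals. The SE of a log2 fold change was derived as its absolute value over the square root of the F statistic, since the test itself gives none. Tried as alternatives were scaling by library total or RLE, limma-voom 3.58.1, DESeq2 1.42.0, other filters, no batch term, each batch, no shallow libraries, a replicate block and each library left out.

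Members, lists and motifs were chosen with earlier results of these data known. Named with values in every library were up to 4 called members of each role, members called in each batch alone and both genes of pairs with an unadjusted p under 0.05. Other transport genes were named up to 3 a list, by smallest adjusted p.

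Both CO2 levels share replicate numbers in the labels. After removal of the CO2 means, same-numbered libraries correlated at 0.776, 0.302, 0.465, 0.874 and 0.497. After removal of batch means as well they correlated at 0.446, 0.297, 0.0422, 0.408 and 0.408. Batch 2 has 2 libraries per level, so its 2 values in this second set are equal by construction. Libraries of different number were not correlated, so neither set shows a pairing by number. By the first set the numbers were taken as a possible pairing, which entered only the replicate block among the alternatives. The main model and the permutation within batch do not use it. No pair of libraries within a level and batch agreed within sampling noise.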

Additional observations from a re-analysis of the deposited data

Results flagged for a closer look

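In 94 groups of 5 libraries (47 members at 2 CO2 levels), the gap of an extreme library to its nearest neighbour was divided by the group's range. That ratio exceeded Dixon's critical value in 5 groups, and chance flags about 1 in 20 groups. Copg2 stood at 24.5 CPM in 2% CO2 replicate 3, against 14.3 to 16.5 CPM in the other 2% CO2 libraries. Copz1 stood at 20.9 CPM in 2% CO2 replicate 2, against 49.0 to 53.3 CPM. Arf4 stood at 332 CPM in 2% CO2 replicate 1, against 418 to 450 CPM, and Stx5a at 5.22 CPM in 2% CO2 replicate 2, against 25.8 to 34.2 CPM. At 10% CO2, Copz2 stood at 46.6 CPM in replicate 5, against 29.1 to 30.7 CPM in the other libraries. The calls of Copz1, Copz2 and Arf4 did not change when these libraries were left out.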

How the results depend on the processing

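Of the 15 called members, 15 stayed lower in sign under every alternative run, and Sec24d, Sec23a, Sec31a, Copz2, Arf4, Kdelr3, Surf4 and Kdelr1 stayed called whichever library was left out. The number called was 9 with library total scaling, 4 without a batch term and 4 in batch 2 alone, where fewer libraries entered, and between 10 and 18 when a library was left out. The cause of the drop with library total scaling and without a batch term was not tested. Over all genes, 351 were called without a batch term, 763 in batch 1 alone and 267 in batch 2 alone. Leaving out 1 library gave between 736 (without 10% CO2 replicate 4) and 1724 genes, with 1014 without 2% CO2 replicate 4. The number of gene pairs with an adjusted p under 0.05 ran from 0 to 6 across such fits, and it was 6 without 2% CO2 replicate 2. That number depends on how many pairs stand at or near the smallest possible p. With the replicate block 18 members and 1927 genes were called, the 3 added members being Copg1, Lman1 and Tmed3, and no other member's call changed. For the gene pairs the block allows 32 arrangements and a smallest p of 0.0625, and leaving out the 3 shallowest libraries allows 12 arrangements and a smallest p of 0.0833, so neither could take a pair past 0.05.

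Signs reversed only in members that were not called. With library total scaling, log2 fold changes were 0.037 for Mia2, 0.021 for Ergic3 and 0.037 for Gosr2, and without a batch term they were 0.0011 for Sec24b, 0.068 for Sec16a and 0.021 for Mia2. In batch 1 alone they were 0.030 for Mia2, 0.0071 for Copg2, 0.16 for Ergic3 and 0.18 for Bet1. In batch 2 alone they were -0.044 for Sar1b, 0.017 for Sec24a, 0.031 for Sec24b, 0.10 for Sec16a and 0.033 for Sec22b. Without the 3 shallowest libraries they were 0.022 for Mia2, 0.12 for Ergic3 and 0.049 for Stx5a. Leaving out 1 library gave ranges of -0.17 to 0.043 for Sec24b, -0.19 to 0.094 for Sec16a, -0.27 to 0.015 for Ergic3, -0.25 to 0.090 for Bet1 and -0.070 to 0.0094 for Gosr2. Log2 ratios reversed to 0.0039 for Sec24a over Sec24b, -0.0052 for Kdelr2 over Kdelr1 and 0.0011 for Tmed3 over Tmed2 without the 3 shallowest libraries, to 0.23 for Copz2 over Copz1 in batch 1, and to -0.39 for Copg2 over Copg1 and -0.036 for Mia2 over Mia3 in batch 2. The cause of these changes was not tested. Depth limits 3 libraries most, since the members' median was 12 counts in 2% CO2 replicate 2, 38 in 2% CO2 replicate 3 and 78 in 10% CO2 replicate 5, while it was 199 in 2% CO2 replicate 1 and higher in the others.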
